A study of Homo sapiens with 15 samples.

Results

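The degrader dCBP-1 was compared with the inhibitors A-485 and GNE-781 given together, gene by gene, in 6 of the 15 RNA libraries of a study of MM.1S cells. MM.1S is a human multiple myeloma line whose MAF gene is joined by a translocation to the immunoglobulin heavy chain locus. By their titles, 3 libraries came from cells given dCBP-1 and 3 from cells given the inhibitor pair, here called the combination. The treatment field of combination replicates 2 and 3 names GNE-782 and GNE-783, whereas the titles and the protocol name GNE-781, which was taken here. The molecule field of all 15 reads genomic DNA, although the protocol describes RNA libraries. The other 9 came from DMSO, A-485 alone and GNE-781 alone, 3 libraries each. Every treatment lasted 6 h, and each compound was used at 100 nM, in the pair as well. Trizol lysates received ERCC spike-in RNA, and RNA was sequenced from the 3′ ends of mRNA with the QuantSeq method, so a long and a short transcript give reads alike.

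CBP (gene CREBBP) and p300 (gene EP300) are paralogous coactivators that transcription factors bring to enhancers and promoters, where they acetylate histones. A-485 blocks their acetyltransferase activity, and GNE-781 occupies the bromodomain with which they bind acetylated lysines. dCBP-1 carries a bromodomain ligand and a ligand of cereblon, the substrate receptor of a ubiquitin ligase, so that both proteins are marked for destruction. In plasma cells and myeloma such enhancers keep factors such as IRF4, MYC and PRDM1 highly expressed. The comparison shows how transcript levels differ when both proteins are targeted for removal and when 2 of their domains are blocked. A group with the cereblon ligand by itself was not part of these samples, so its effects and those of protein loss cannot be told apart. Protein levels were not measured in these libraries.

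The 6 libraries held 13.10 to 18.29 M reads, and reads of mitochondrial genes made up 14.3% to 17.0% of them. Values are normalised read counts, that is, reads divided by 1 factor per library. The labels do not state whether replicates were grown apart, and p-values here measure only the spread between these libraries. Of 9 plasma cell markers all were detected, with a summed level of 34819 to 43958 in combination libraries and 25725 to 27244 in dCBP-1 libraries. Markers of other cells were far lower: B cell, T cell and myeloid markers each summed to at most 22.3 in any of the 6 libraries, and CD3D, LYZ, CSF1R and S100A8 were at 0 reads in all 6. The 3 erythroid markers summed to 43.8 to 74.3 with the combination and 26.7 to 37.9 with dCBP-1, and the 3 fibroblast markers to 6.37 to 15.8 and 1.86 to 5.93. Like the plasma cell markers, these were lower in every dCBP-1 library. The part of these differences in the results below was not tested. In bulk RNA, fewer cells of a kind and less RNA per cell cannot be told apart. The log2 differences below are dCBP-1 minus combination on the log2(value + 1) scale, with SE, and a gene was called at a Benjamini-Hochberg adjusted p below 0.05 from limma.

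Relative to the combination, many more genes were lower with dCBP-1 than higher. Of 16104 genes tested, 904 were called lower (5.61%) and 89 higher (0.553%), 6.17% in all. These are the shares to set beside the list counts below. The changes were also deeper on the lower side. At least 2-fold, 388 genes were lower (2.41%) and 19 higher (0.118%). At least 4-fold, 75 were lower and 2 higher, and at least 8-fold, 17 were lower and 1 higher. All 89 genes called higher were protein-coding, as were 824 of the 904 called lower and 12726 of the 16104 tested. The median log2 difference was -0.89 over the genes called lower, 0.71 over those called higher and -0.03 over all genes tested. The split depended on the scaling: TMM factors gave 337 higher and 1025 lower, median-ratio factors 330 and 1043, and quantile normalization 499 and 987. The count of higher genes also rested on single libraries. It was 33 without dCBP-1 replicate 1, 43 without dCBP-1 replicate 2 and 39 without combination replicate 1.

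**Figure D1:**
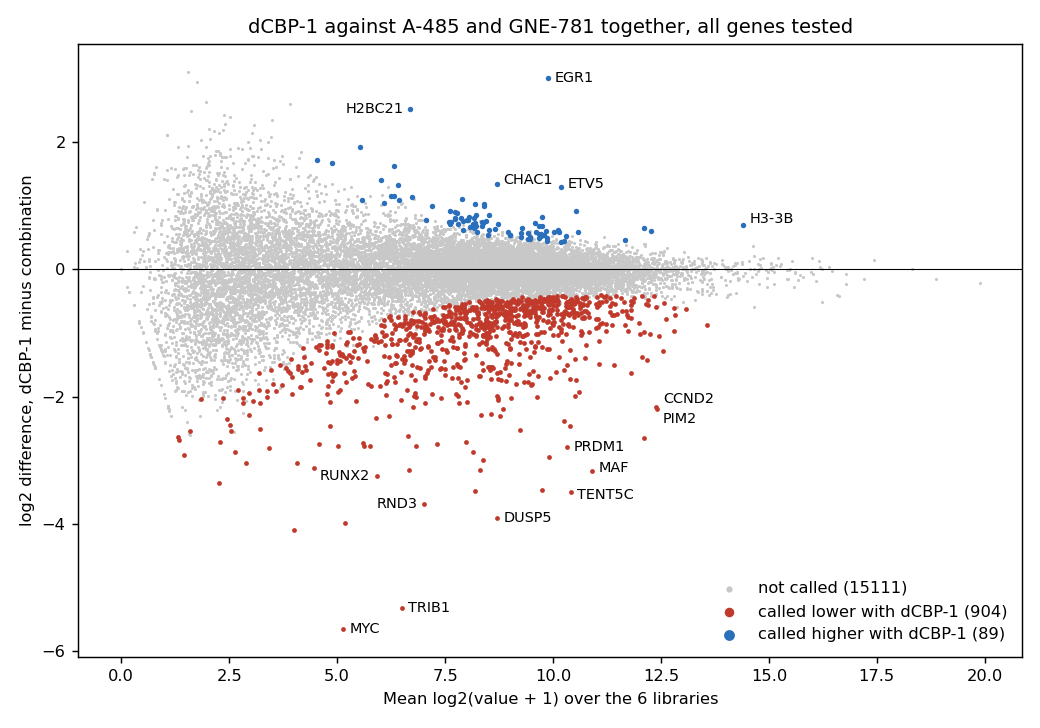
Each point is 1 of the 16104 genes tested, with its mean log2(value + 1) over the 6 libraries on the x axis and the log2 difference, dCBP-1 minus combination, on the y axis. Red points (904) were called lower and blue points (89) higher. MYC and TRIB1 lie lowest, and EGR1 is the highest of the called genes.

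For most called genes the combination lay between DMSO and dCBP-1. Its mean was between the other two in 817 of the 904 genes called lower and in 76 of the 89 called higher, against 9582 of 15991 among all genes with a DMSO level above 0. Over the 904, the median level was 67.5% of the DMSO mean with the combination and 35.3% with dCBP-1. Over the 89, it was 133% and 227%. These levels describe genes chosen by the contrast itself, and both treatments are set against the same DMSO libraries.

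MYC, the growth-promoting transcription factor, had the largest fall. Its normalised read counts were 1221, 1709 and 1413 in the DMSO libraries, 162, 229.7 and 412 in the combination libraries and 7.45, 5.65 and 1.19 in the dCBP-1 libraries. The dCBP-1 values stand on 8, 7 and 1 reads, and the 2 groups lay far apart. Groups lay apart in this direction for 14.3% of all genes tested, and in the other direction for 8.88%. The log2 difference was -5.65 ± 0.33, adjusted p = 1.2e-13. Its size moved with the pseudocount and the other settings, from -6.03 to -4.76.

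TRIB1, a pseudokinase that directs COP1-dependent protein turnover, stood at 92.9% of DMSO with the combination and 2.18% with dCBP-1. Its values were 664, 545 and 637 with DMSO, 498, 688 and 529.6 in the combination libraries and 15.8, 11.3 and 13.0 in the dCBP-1 libraries. The combination libraries overlapped the DMSO libraries, and the dCBP-1 libraries were all far below both. The log2 difference from the combination was -5.31 ± 0.18, adjusted p = 4.1e-19, while the combination differed from DMSO by -0.11 (95% interval -0.48 to 0.25).

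The list of plasma cell transcription factors had the lowest median. The lists were chosen with earlier results of these data known, so this rank is a description and tests nothing. Some members of this list, such as BACH2, SPI1 and POU2F1, are not particular to plasma cells. Of 32 factors tested, 22 were called lower and none higher (68.8%, all genes 6.17%). Their median log2 difference was -1.21, against -0.03 over all genes. MAF, the oncogene activated by the translocation in this line, had values of 5148, 5547 and 6709 in the combination libraries and 694, 751 and 502 in the dCBP-1 libraries. Each dCBP-1 library lay below each combination library, and the log2 difference was -3.17 ± 0.14, adjusted p = 3.1e-16. The DMSO mean of MAF was 16394 ± 1437 (SD, n = 3), so MAF stood at 35.4% of DMSO with the combination and 3.96% with dCBP-1.

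PRDM1 encodes BLIMP1, the repressor that fixes plasma cell identity. It measured 2932, 3531 and 3774 in the combination libraries and 578, 468 and 428 in the dCBP-1 libraries. The groups did not overlap, and the log2 difference was -2.80 ± 0.13, adjusted p = 8.8e-16. IRF4, a factor on which myeloma cells depend, measured 484, 676 and 905 in the combination libraries and 284, 243 and 169.6 in the dCBP-1 libraries. Its fall was smaller, -1.55 ± 0.19, adjusted p = 8e-07, and the combination stood at 29.5% of DMSO. XBP1, the driver of secretory capacity, fell by less again (-1.02 ± 0.13).

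Several other regulators in the list fell. KLF13, a Krüppel-like factor, measured 2686 ± 501 with the combination and 345 ± 45.7 with dCBP-1 (SD, n = 3). ZBTB38, a zinc finger protein that binds methylated DNA, measured 11146 ± 1669 with the combination and 1767 ± 125 with dCBP-1, with a DMSO mean of 14869. KLF6 stood at 105% of DMSO with the combination and 31.5% with dCBP-1. For these 3 genes the log2 differences were -2.95 ± 0.15, -2.65 ± 0.15 and -1.74 ± 0.13. RUNX1 (-2.63 ± 0.20), the DNA-binding subunit of core binding factor, and BHLHE41 (-2.19 ± 0.14), a repressor that also belongs to the circadian system, fell too. RUNX2, a paralog of RUNX1, was among the 15 largest falls at or above the median level of genes tested. It measured 148, 187 and 234 in the combination libraries and 21.4, 17.0 and 17.8 in the dCBP-1 libraries.

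Genes with KLF or SP symbols were counted as a list of their own (median -0.60). SP100 and SP140 are in it by symbol and are not of the Krüppel-like and SP family. Of 21 tested, 8 were lower and none higher (38.1% called, against 6.17% of all genes). All 8 were KLF genes, while SP1 (-0.27), SP2 (-0.05), SP3 (-0.20) and SP4 (0.21) were not called. KLF3 (-1.22), KLF2 (-1.54), KLF11 (-1.12), KLF9 (-1.03) and KLF16 (-0.77) joined KLF13 and KLF6. The eighth, KLF10, measured 47.0, 82.6 and 108 in the combination libraries and 39.1, 47.7 and 16.6 in the dCBP-1 libraries. Its call was lost without dCBP-1 replicate 3 (-0.78, adjusted p = 0.2), combination replicate 2 (-1.15, adjusted p = 0.083) or combination replicate 3 (-0.96, adjusted p = 0.16).

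**Figure D2:**
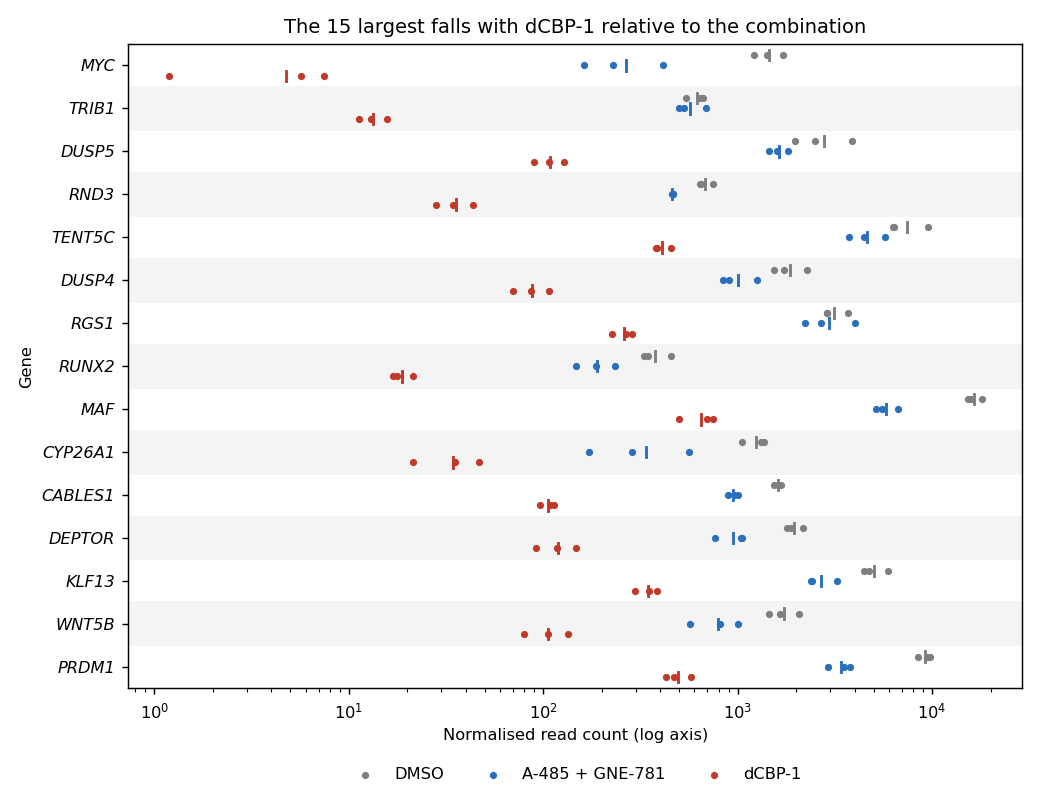
Normalised read counts (log axis) of the 15 largest called falls at or above the median level whose groups lay apart, in rows by size. Points are the 3 libraries of each group and bars the group means for DMSO (grey), the combination (blue) and dCBP-1 (red). That the dCBP-1 libraries lie below the combination libraries in all 15 was set by this choice of genes. For TRIB1 and RGS1 the combination overlaps DMSO.

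The 15 largest called falls were taken among genes at or above the median level of genes tested whose groups lay apart. All 15, MYC and TRIB1 included, were called under each of the 19 alternative settings. Their combination means were 18.5% to 94.1% of DMSO, and their dCBP-1 means 0.329% to 8.23%. RND3, an atypical small GTPase, measured 458, 463 and 463 in the combination libraries and 43.8, 28.3 and 34.4 in the dCBP-1 libraries, and the combination libraries were almost equal. TENT5C, a poly(A) polymerase that stabilises secretory mRNAs and is often mutated in myeloma, measured 3737, 4467 and 5743 in the combination libraries and 454, 387 and 381 in the dCBP-1 libraries. Both genes had groups far apart, with log2 differences of -3.69 ± 0.17 and -3.49 ± 0.16. RGS1, a regulator of G protein signalling, measured 2866, 2896 and 3685 with DMSO, 2212, 2688 and 3993 in the combination libraries and 285, 266 and 226 in the dCBP-1 libraries. Here the combination libraries spread around the DMSO values, and the fall with dCBP-1 was -3.47 ± 0.18, adjusted p = 6.6e-15. CABLES1, a cyclin-dependent kinase adaptor, and WNT5B, a WNT ligand, fell (-3.15 and -2.88).

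Genes linked to MAF were followed as a list of 14 tested (median -0.74). Of these, 6 were lower and none higher (42.9% called, against 6.17% of all genes). They were MAF itself, DEPTOR (-3.0 ± 0.17), an mTOR inhibitor that is high in MAF-type myeloma, CCR1 (-2.38 ± 0.13), a chemokine receptor, CCND2 (-2.16 ± 0.15), TLR4 (-1.71 ± 0.18) and the kinase NUAK1 (-1.26 ± 0.16).

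In the MYC network, 1 of 12 tested genes was higher and 2 lower (25.0% called, against 6.17% of all genes). MXD1, which competes with MYC for MAX and represses transcription, rose, with values of 201, 272 and 246 in the combination libraries and 513, 534 and 415 in the dCBP-1 libraries (1.02 ± 0.17, adjusted p = 0.0001). MNT, another repressive partner of MAX, fell (-0.81 ± 0.18, adjusted p = 0.0028). MAX itself measured 867 ± 86.8 with the combination and 1059 ± 46.9 with dCBP-1 and did not pass (0.29 ± 0.15, adjusted p = 0.37).

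Genes of ribosome biogenesis, many of them known MYC targets, fell in about as many members as did not pass. Of 43 tested, 23 were lower and none higher (53.5% called, against 6.17% of all genes), with a median of -0.51. Without combination replicate 2 the count was 14. RRS1, an assembly factor of the large subunit, measured 548, 574 and 589 in the combination libraries and 157, 163 and 218 in the dCBP-1 libraries, with no overlap (-1.68 ± 0.20). PPAN (-1.53 ± 0.17), NOP16 (-1.23 ± 0.15) and WDR43 (-1.13 ± 0.13) were the other members below -1.1. DDX21, a nucleolar helicase, fell (-1.02) and the pseudouridine synthase DKC1 (-0.84). Of the 74 cytosolic ribosomal protein genes tested, none was called by limma, edgeR or DESeq2, and 2 had an unadjusted p below 0.05 in limma (median -0.01).

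Genes of the ERK signalling loop moved in both directions. ERK activity induces phosphatases and adaptors that dampen the pathway, and it induces immediate early genes through serum response factor. Of 25 feedback genes tested, 10 were lower and 1 higher (44.0% called, against 6.17% of all genes, median -0.36). The phosphatases DUSP5 and DUSP4 measured 1626 ± 186 with the combination and 108 ± 18.8 with dCBP-1, and 999.7 ± 227 with the combination and 88.0 ± 18.8 with dCBP-1, respectively (SD, n = 3). The log2 differences were -3.91 ± 0.17 and -3.49 ± 0.17. SPRY1 (-2.77 ± 0.25), PHLDA1 (-2.29 ± 0.17) and SPRED1 (-0.90 ± 0.18), other genes of this loop, fell as well. PHLDA1 was close to DMSO with the combination (92.4%) and at 18.9% with dCBP-1. DUSP6, the phosphatase most specific to ERK, fell little (-0.57 ± 0.14, adjusted p = 0.0089), and its call was lost without dCBP-1 replicate 2 (-0.53, adjusted p = 0.055), combination replicate 2 (-0.52, adjusted p = 0.066) or combination replicate 3 (-0.49, adjusted p = 0.073).

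ETV5, an ETS factor induced by ERK, was the member that rose. It measured 320.0, 288 and 453 with DMSO, 701, 823 and 725 in the combination libraries and 1852, 1819 and 1797 in the dCBP-1 libraries. The levels stepped up from DMSO to the combination and again to dCBP-1, with no overlap between any 2 of the groups (1.28 ± 0.16, adjusted p = 4.8e-07).

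EGR1, a zinc finger factor and the classical immediate early gene, had the largest rise among called genes. It measured 32.7, 33.7 and 61.9 with DMSO, 416, 320.3 and 282 in the combination libraries and 2662, 2609.8 and 2801 in the dCBP-1 libraries. All 3 dCBP-1 libraries lay more than 6-fold above each combination library, and all 3 combination libraries above each DMSO library. The log2 difference between dCBP-1 and the combination was 3.0 ± 0.24, adjusted p = 1.5e-10. IER2, another immediate early gene, was higher too and measured 162 ± 19.7 with the combination and 346 ± 30.5 with dCBP-1 (1.09 ± 0.23, adjusted p = 0.0015).

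Of the 23 immediate early genes tested, 2 were higher and 6 lower (34.8% called, against 6.17% of all genes, median -0.12). Those that fell included the mRNA decay factors ZFP36L1 (-1.77 ± 0.15) and ZFP36L2 (-1.51 ± 0.17), the antiproliferative cofactor BTG2 (-1.37 ± 0.15) and the AP-1 subunit FOSL2 (-0.94 ± 0.21). ZFP36L1 stood at 112% of DMSO with the combination and 32.7% with dCBP-1. ZFP36 fell (-1.47) with wide spread (62.1, 113 and 357 in the combination libraries), and without combination replicate 3 its difference was -0.77 (adjusted p = 0.19), while without dCBP-1 replicate 3 it was -1.25 (adjusted p = 0.058).

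**Figure D3:**
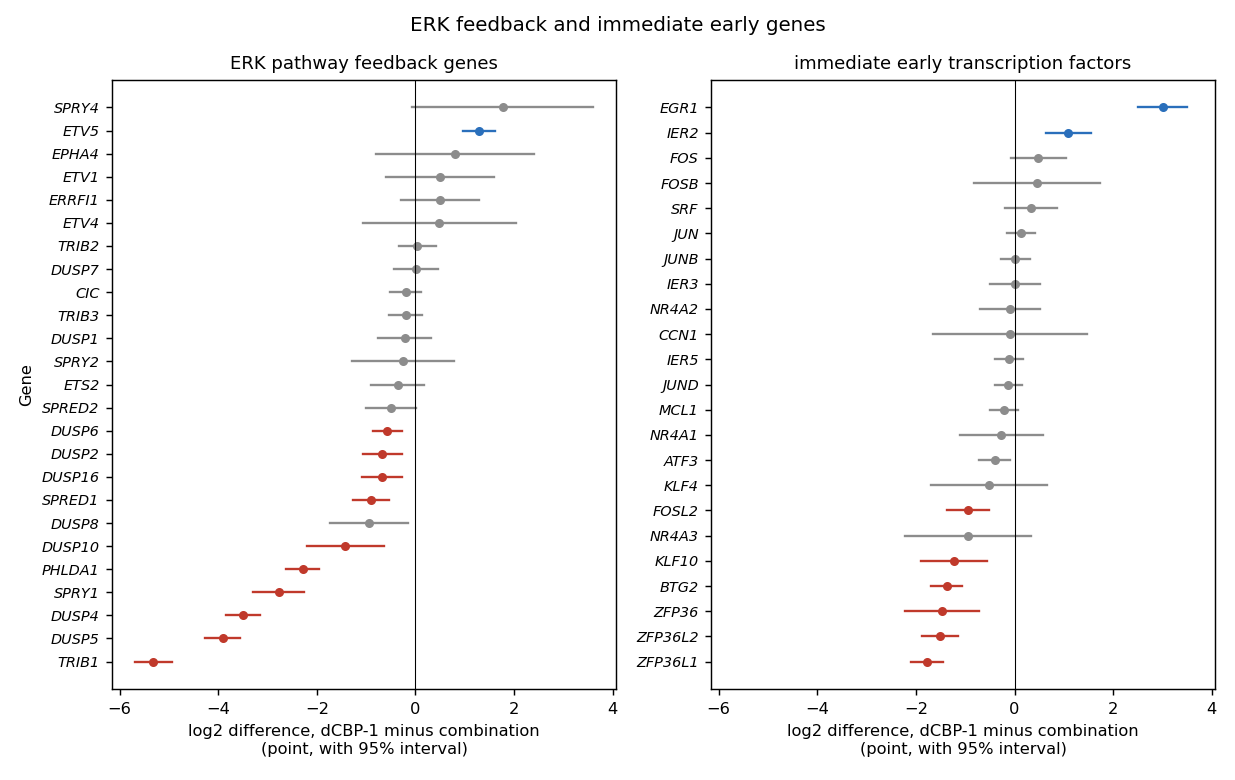
Log2 difference, dCBP-1 minus combination, with its 95% interval on the x axis, for the 25 ERK feedback genes (left) and the 23 immediate early genes (right) tested. Red genes were called lower, blue higher and grey not called. TRIB1, DUSP5 and DUSP4 lie lowest, and EGR1, IER2 and ETV5 are the called genes above 0.

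Promoter sequences are shown for 3 genes at the ends of this list of changes: EGR1, the largest rise, RND3, a large fall that holds the same kind of motif, and MAF. They are the 150 bases before the RefSeq start (build GRCh38.p14), 5′ to 3′ on the strand of the gene, with motif matches in capitals. EGR1 lies at chr5:138465329-138465478 on the plus strand, RND3 at chr2:150487696-150487845 and MAF at chr16:79600738-79600887 on the minus strand. Capitals mark CArG boxes, the binding motif of serum response factor, in EGR1 and RND3, and the cyclic AMP response element TGACGTCA in MAF.
EGR1: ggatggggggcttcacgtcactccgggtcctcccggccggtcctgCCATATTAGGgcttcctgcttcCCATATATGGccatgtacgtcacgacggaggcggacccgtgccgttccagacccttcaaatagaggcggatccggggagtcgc
RND3: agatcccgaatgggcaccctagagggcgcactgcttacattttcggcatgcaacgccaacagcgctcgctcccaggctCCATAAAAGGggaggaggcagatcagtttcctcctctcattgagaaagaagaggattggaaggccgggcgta
MAF: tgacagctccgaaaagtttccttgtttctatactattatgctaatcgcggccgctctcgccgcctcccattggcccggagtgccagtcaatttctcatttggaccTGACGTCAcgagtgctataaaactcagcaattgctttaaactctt

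EGR1 holds 2 CArG boxes, at positions -105 to -96 and -83 to -74 from the start, and RND3 holds 1, at -72 to -63. In promoters of 300 bases (250 before the start and 50 after), both strands searched, 454 of 35116 hold a CArG box (1.29%). Both the largest riser and 1 of the largest fallers thus hold this motif. The element in MAF lies at -45 to -38, and 1.85% of promoters hold it. Of the 30 largest rises and falls at or above the median level, 22 had a promoter in the table, and no other of the 22 held either motif. Other motifs were searched too. The retinoic acid half-site AGGTCA lay in RGS1, RUNX2 and PIK3IP1 (13.8% of promoters) and AGTTCA in CABLES1 (10.4%). The E-box CACGTG lay in CYP26A1 and PPP1R3D (7.26%), and the octamer ATGCAAAT (1.77%) in none of the 22. These matches are descriptions of the letters and show no binding.

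Receptors and surface proteins of plasma cells fell in part. Of 31 surface and secretory markers, 13 were lower and none higher (41.9% called, against 6.17% of all genes, median -0.40). PIM2, a survival kinase induced by cytokines, measured 12688, 12656 and 9632 in the combination libraries and 2559, 2490.2 and 2516 in the dCBP-1 libraries, and the groups did not overlap (-2.20 ± 0.17). The costimulatory receptor CD28 fell (-2.02 ± 0.15). TNFRSF17, which encodes BCMA, and TNFRSF13B, which encodes TACI, fell (-1.77 and -1.65), from combination levels of 21.2% and 29% of DMSO. SDC1 (syndecan, the usual plasma cell marker) and SLAMF7 fell (-0.92 and -0.99). The immunoglobulin joining chain JCHAIN (-0.18) and the chaperone MZB1 (-0.29) were not called.

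Cytokine and chemokine receptors were among the genes that fell. Of 27 JAK-STAT genes, 7 were lower and none higher (25.9% called, against 6.17% of all genes). Besides PIM2 these included both chains of the interleukin-6 receptor, IL6R (-1.61 ± 0.14) and IL6ST (-0.91 ± 0.15), and IL10RA (-1.82 ± 0.14) and IL21R (-1.97 ± 0.27). Of 22 chemokine and integrin genes, 8 were lower and none higher (36.4% called, median -0.52). CXCR4, the bone marrow homing receptor, measured 527, 436 and 549 with DMSO, 401, 415 and 459.7 in the combination libraries and 115, 116 and 94.9 in the dCBP-1 libraries. The dCBP-1 libraries were far below both other groups (-1.96 ± 0.16). The integrin subunit ITGA4 fell (-1.34), and CCR2 (-2.81) from a low level (28.7 ± 9.24 with the combination and 3.63 ± 2.52 with dCBP-1).

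In the BCL2 family, which sets the threshold for apoptosis, 4 of 15 tested genes were lower and none higher (26.7%, all genes 6.17%). The antiapoptotic BCL2L1 and BCL2 measured 848 ± 242 with the combination and 207 ± 7.67 with dCBP-1, and 576 ± 71.6 with the combination and 191 ± 33.0 with dCBP-1, respectively. Their log2 differences were -1.99 ± 0.17 and -1.59 ± 0.15. The proapoptotic BMF (-1.27 ± 0.17) and BCL2L11, which encodes BIM (-0.89 ± 0.14), fell too, so members of both kinds were lower. MCL1, the antiapoptotic member on which myeloma cells often depend, did not pass (-0.22 ± 0.14, adjusted p = 0.5), with a 95% interval of -0.51 to 0.07.

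Genes of NF-κB signalling fell in 9 of 25 tested and rose in none (36.0% called, against 6.17% of all genes). TNFAIP3 (-2.02 ± 0.15), which encodes the feedback inhibitor A20, BCL3 (-2.0 ± 0.21), a nuclear cofactor, and BIRC3 (-1.50 ± 0.14), an inhibitor of cell death, were lowest. The subunit gene NFKB2 fell (-0.87). NFKBIA, the main inhibitor of NF-κB, was above DMSO with the combination (133%) and below it with dCBP-1 (84.2%), a difference of -0.66 ± 0.15.

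Glucocorticoid-induced genes were the list with the second lowest median (-0.77), with 7 of 12 lower and none higher (58.3%, all genes 6.17%). SGK1, a kinase of the AKT type, measured 549, 637 and 779 in the combination libraries and 130.4, 96.9 and 74.7 in the dCBP-1 libraries, without overlap (-2.71 ± 0.17, adjusted p = 8e-13). NR3C1, the glucocorticoid receptor, fell (-1.0 ± 0.12). KLF9, BIRC3, CXCR4, NFKBIA and BCL2L11, given above, were the other 5, so this list shares members with others. The known receptor targets TSC22D3 (-0.11), FKBP5 (-0.27), PER1 (-0.01) and DUSP1 (-0.22) were not called, nor was DDIT4 (-0.44). The list thus did not fall as a whole.

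Cell cycle entry genes fell in a few members. Of 23 D cyclins, kinases and inhibitors, 6 were lower and none higher (26.1% called, against 6.17% of all genes). Here edgeR and DESeq2 each called 1 higher and 7 lower. CCND2, the D cyclin that MAF drives in myeloma, measured 9209, 13250.5 and 12046 in the combination libraries and 2301, 2319.8 and 3060.2 in the dCBP-1 libraries. CCND1 was at a much lower level, 132, 153 and 135 in the combination libraries and 18.6, 15.3 and 26.1 in the dCBP-1 libraries, and fell more (-2.78 ± 0.21). The kinase CDK6, their partner, fell (-1.58), and E2F2 (-0.87). The inhibitor genes CDKN1A (-0.60 ± 0.13) and CDKN1B (-0.54 ± 0.13) were also lower. The CDKN1B call was lost without combination replicate 3 (-0.45, adjusted p = 0.087). Genes of DNA replication and mitosis were called in 0 of 39 and 1 of 42, against 6.17% of all genes. None of the 39 replication genes was called by limma, with 4 at an unadjusted p below 0.05, 1 higher and 1 lower in edgeR, and 3 higher and 1 lower in DESeq2. The mitotic gene called by limma was CDC25C (0.59), and not without dCBP-1 replicate 1, while edgeR called 4 higher and 2 lower and DESeq2 5 higher and 2 lower.

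Developmental signalling pathways held genes that fell, among them receptors, ligands and known targets. In the retinoic acid pathway, 4 of 14 tested were lower and none higher (28.6%, all genes 6.17%), although the median was 0.03. CYP26A1, the retinoic acid hydroxylase, measured 171, 285 and 561 in the combination libraries and 35.4, 46.8 and 21.3 in the dCBP-1 libraries, and RARA, a receptor, 237, 301 and 545 in the combination libraries and 90.3, 111 and 55.7 in the dCBP-1 libraries. Combination replicate 3 was the highest of its group in both, and the groups still did not overlap (-3.16 ± 0.29 and -2.03 ± 0.23). HES1, the Notch target, fell (-2.75 ± 0.20). This was the largest called fall of 6 among 28 WNT and Notch genes (21.4% called, against 6.17% of all genes). In the TGF-beta list 8 of 22 were lower (36.4% called). ID2 (-1.73 ± 0.15), SMAD7 (-1.34 ± 0.23) and SKIL (-0.86 ± 0.14) were among them, all known targets of the pathway or of BMP signals.

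Cereblon substrates were examined because dCBP-1 contains a cereblon ligand. IKZF3, which encodes Aiolos, measured 223, 317 and 273 in the combination libraries and 56.8, 59.0 and 71.1 in the dCBP-1 libraries, without overlap (-2.10 ± 0.19, adjusted p = 1.5e-09). IKZF1, which encodes Ikaros, measured 989, 1110.2 and 1046 in the combination libraries and 845, 868 and 754 in the dCBP-1 libraries and did not pass (-0.35 ± 0.14, adjusted p = 0.18), with a 95% interval of -0.64 to -0.06. It did pass in DESeq2 (-0.31, adjusted p = 0.035). Of 15 genes in this list 3 were lower and none higher in limma, GSPT1 and ZNF692 being the others, against 6.17% of all genes called. The count was 1 without combination replicate 3. Here edgeR called 1 higher and 3 lower, and DESeq2 called 1 higher and 4 lower. CRBN, the cereblon gene, differed by 0.14 ± 0.14, interval -0.15 to 0.42. These are RNA levels, and the degraded proteins themselves were not measured.

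No difference was detected in the transcripts of the targets themselves. CREBBP measured 1726, 2080.2 and 1859.7 in the combination libraries and 2204, 1989 and 2629.8 in the dCBP-1 libraries. The groups overlapped, and the difference was 0.26 ± 0.15, adjusted p = 0.4, with a 95% interval of -0.04 to 0.56. EP300 measured 1248, 1850.4 and 1609.6 in the combination libraries and 1419, 1342 and 2061 in the dCBP-1 libraries, with a difference of 0.03 ± 0.16, adjusted p = 0.97 and an interval of -0.31 to 0.36. Its sign changed without dCBP-1 replicate 3 (-0.17) or combination replicate 1 (-0.13). Of 26 acetyltransferase genes none was called in limma, against 6.17% of all genes, and 4 had an unadjusted limma p below 0.05. Here edgeR called 1 lower, and DESeq2 called 1 higher and 2 lower.

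Among 26 deacetylase and corepressor genes, 4 were lower and none higher (15.4% called, against 6.17% of all genes). TBL1XR1, a subunit of the NCoR corepressor, was the lowest (-1.51 ± 0.14), and NCOR1 (-0.02) was not called. SWI/SNF subunits were lower in 2 of 21 and higher in none (9.52% called). ARID1A (-0.76 ± 0.13) was 1 of these 2, and SMARCA4 (-0.16) was not called. Polycomb and histone methyltransferase genes were called in 1 of 28 (3.57%). Histone genes moved in both directions, with 3 of 16 tested higher and 1 lower (25.0% called, against 6.17% of all genes). H2BC21, an H2B gene, measured 43.0, 37.3 and 47.0 in the combination libraries and 230.0, 219.7 and 290.5 in the dCBP-1 libraries. Every dCBP-1 library was more than 4-fold above every combination library (2.51 ± 0.26, adjusted p = 3.4e-08). H3-3B, which encodes the variant H3.3, rose from a high level, 15744, 18393 and 16844 in the combination libraries and 28007, 27326 and 26921 in the dCBP-1 libraries (0.69 ± 0.14). H1-4, a linker histone gene, fell (-0.97 ± 0.19). Without dCBP-1 replicate 1, 3 histone genes were lower.

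Of 38 translocon and secretion genes, limma called TENT5C alone (2.63%, against 6.17% of all genes), while edgeR and DESeq2 each called 1 lower and 2 higher, and the median was -0.02. In the unfolded protein response 5 of 31 (16.1%) were lower and none higher, with 1 higher in edgeR and in DESeq2. ERN1, the sensor kinase that splices XBP1 mRNA, fell (-1.54 ± 0.14) and HERPUD1, a component of ER-associated degradation, (-1.63 ± 0.17). None of 31 proteasome genes was called by limma, edgeR or DESeq2 or had an unadjusted limma p below 0.05, and the same held for 17 genes of MHC class I presentation. CIITA, the class II transactivator, fell (-2.46 ± 0.29) from a low level. The class II genes HLA-DRA (0.00) and HLA-DRB1 (-0.09) were not called.

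Further falls were spread over other lists. MIR17HG, the host transcript of an oncogenic microRNA cluster, measured 52.6, 58.9 and 84.1 in the combination libraries and 11.2, 3.23 and 7.11 in the dCBP-1 libraries, without overlap (-3.12 ± 0.34). It was the lowest of 4 called among 26 noncoding RNAs (15.4% called, against 6.17% of all genes). Of 20 circadian clock genes 7 were lower (35.0% called, against 6.17% of all genes). Besides BHLHE41 these included NFIL3 (-1.48 ± 0.14), PER2 (-1.03 ± 0.20) and the clock kinase CSNK1E (-0.72 ± 0.12). Of 29 p53 target genes 5 were lower (17.2% called), with AEN (-1.50 ± 0.17), an exonuclease, the lowest. Of 30 interferon response genes 3 were lower and 2 higher (16.7% called). The regulatory factors IRF2 (-1.15 ± 0.16) and IRF1 (-0.70 ± 0.13) were among those that fell, and GBP1 (0.75 ± 0.18) and GBP2 (1.04 ± 0.30), interferon-induced GTPases, rose. The GBP1 call was lost without combination replicate 1 (0.62, adjusted p = 0.054), and the GBP2 call when any 1 of the 6 libraries was left out (adjusted p of 0.056 to 0.17). In the 24 lists with at least 3 members lower and none higher in limma, 545 genes were tested. Among these, 16 were higher at an unadjusted p below 0.05, 9 in edgeR and 12 in DESeq2.

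**Figure D4:**
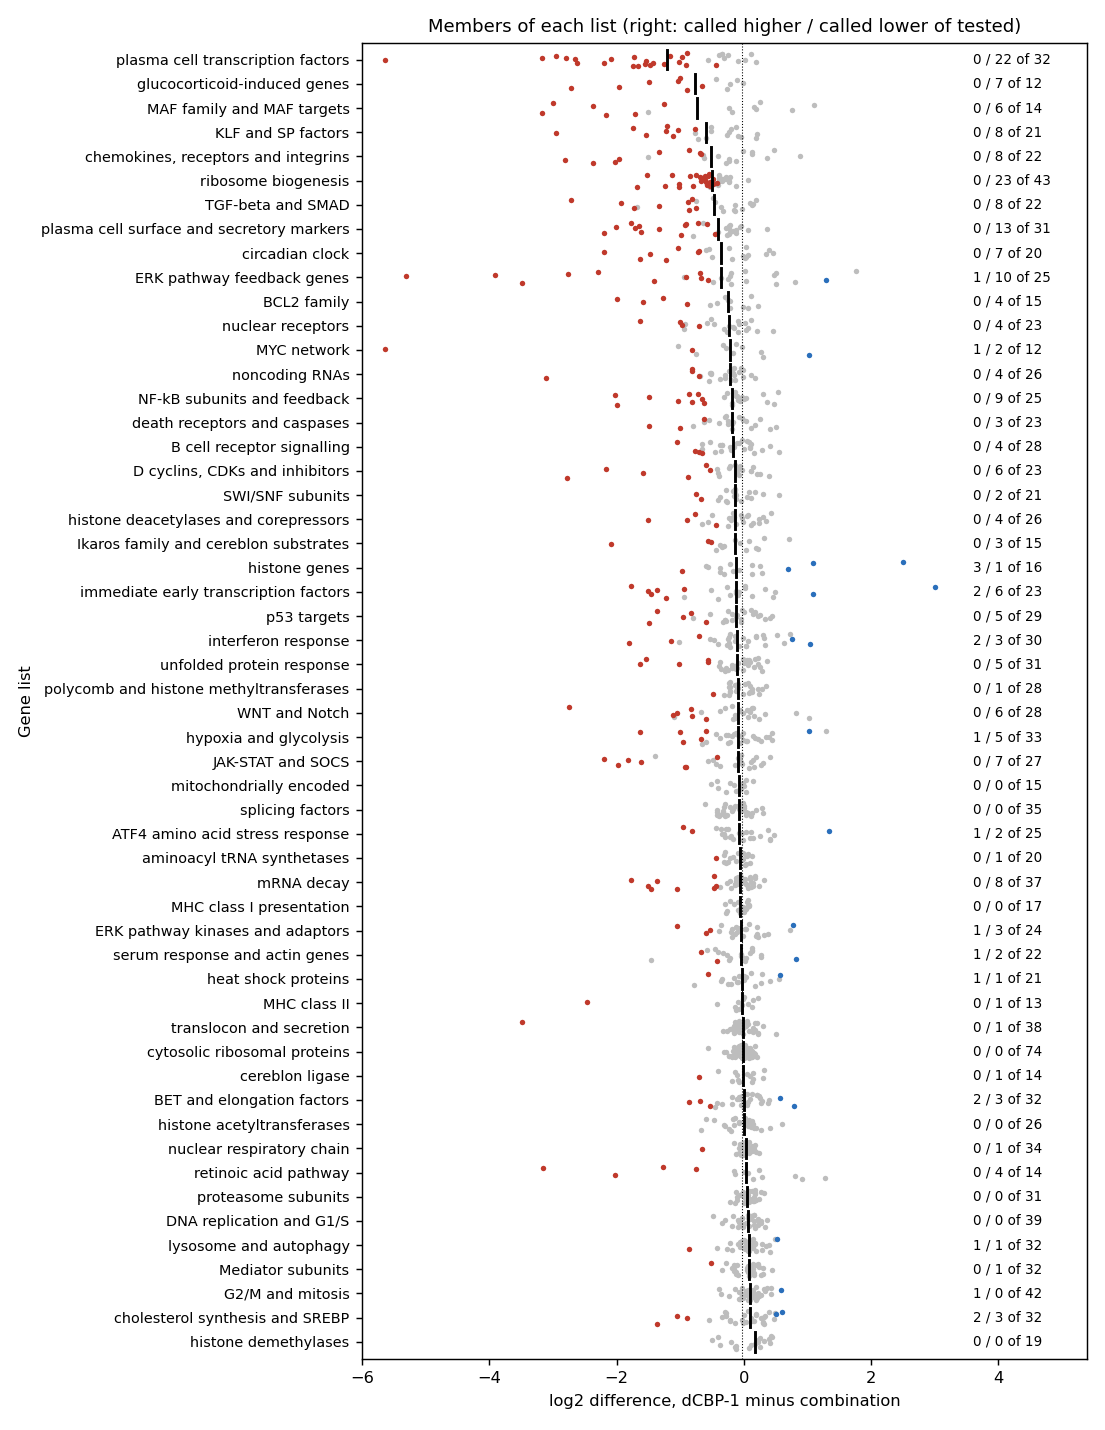
Log2 difference, dCBP-1 minus combination, on the x axis for members of each gene list with at least 12 genes tested (marker lists of other cell types left out), sorted by median (black bar). Red members were called lower, blue higher and grey not called, with counts at the right, and the dotted line is the median of all genes tested (-0.03). Plasma cell transcription factors lie furthest to the left, and lists such as proteasome subunits and ribosomal proteins lie at the line. The lists were chosen with earlier results of these data known.

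Rises with dCBP-1 were fewer and mostly below 2-fold. CHAC1, a glutathione-degrading enzyme induced by ATF4, measured 414, 348 and 405 with DMSO, 281, 250.1 and 251 in the combination libraries and 656, 675 and 653 in the dCBP-1 libraries. It was below DMSO with the combination and above it with dCBP-1, with no overlap among the 3 groups (1.34 ± 0.15, adjusted p = 1e-07). Of 25 ATF4 pathway genes, limma called CHAC1 higher and SLC7A5 (-0.81 ± 0.17) and VEGFA (-0.96 ± 0.17) lower, while edgeR called 3 higher and 2 lower and DESeq2 4 higher and 2 lower. SLC2A3, a glucose transporter, measured 194, 212 and 205 in the combination libraries and 399, 380.4 and 469.5 in the dCBP-1 libraries (1.02 ± 0.20, adjusted p = 0.00088). SAT1, which catabolises polyamines, rose by 0.91 ± 0.14, TTBK2, a tau tubulin kinase, by 0.98 ± 0.18 and LIMA1, an actin-bundling protein, by 0.81 ± 0.17.

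The 15 largest rises were also taken at or above the median level. Larger called rises at lower levels, such as H2BC21 (2.51) and IER2 (1.09), are thus not among them. Of these 15, 8 were called under each alternative: EGR1, CHAC1, ETV5, MXD1, SLC2A3, TTBK2, SAT1 and LIMA1. The other 7 had log2 differences of 0.78 to 0.85, and each lost its call when a single library was left out. FAM43A was not called without dCBP-1 replicate 1 (0.66, adjusted p = 0.081), and PGM2L1 not without dCBP-1 replicate 3 (0.71, adjusted p = 0.073) or combination replicate 1 (0.66, adjusted p = 0.079). Among lipid synthesis genes FASN rose (0.59 ± 0.14, adjusted p = 0.0059), while the sterol exporters ABCA1 (-1.36 ± 0.22) and ABCG1 (-1.06 ± 0.15) fell.

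**Figure D5:**
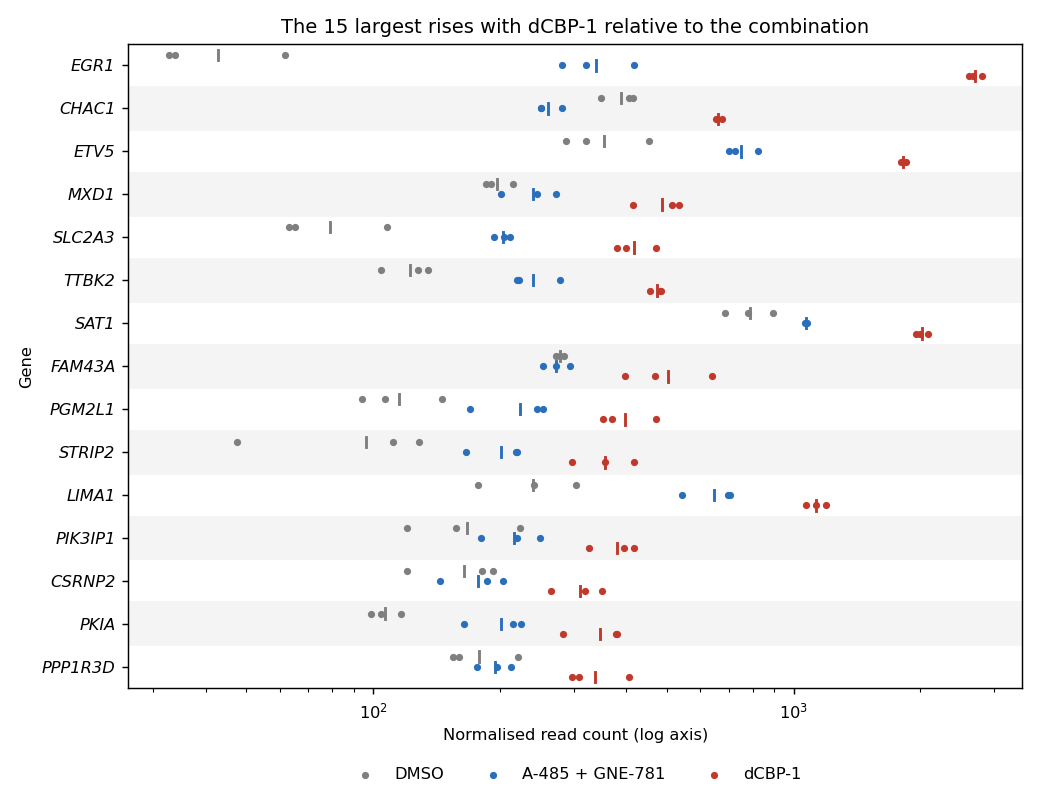
Normalised read counts (log axis) of the 15 largest called rises at or above the median level whose groups lay apart, in rows by size. Points are the 3 libraries of each group and bars the group means for DMSO (grey), the combination (blue) and dCBP-1 (red). EGR1 rises in 2 steps, and CHAC1 is lowest with the combination.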

How the data were processed

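RNA of MM.1S cells was sequenced in 15 libraries, grouped by title, of which 6 enter the contrast. The authors deposited 1 signal value for each gene and library, normalized read counts, on build hg19 per the submitters' processing notes. Tested on the values, each is a whole multiple of 1 step per library (100% within 0.01 of a whole read), so reads were recovered. How the factors were set, and whether strand was used, is not given in the sources used here, so antisense reads cannot be told apart. The table held 47459 genes with values, in order of identifier, and its last row holds an identifier with no value. Genes beyond it were not analysed here, so counts of genes and list members are of those up to that row. No ERCC spike-in rows were among the values, so the spike-ins were not analysed here. Whether the deposited factors used them is not given, and no value is read here as RNA per cell. Symbols were matched for 96.9% of identifiers.

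Genes reaching 5 in at least 3 of 15 libraries (16104) were tested on log2(value + 1) with limma-trend (limma 3.58.1, R 4.3.3), two-sided, in 1 model of 5 group means. The DMSO, A-485 and GNE-781 libraries thus shared in the estimate of spread, and DMSO replicates 1 and 2, with mitochondrial shares of 23.1% and 19.7%, stood apart. The method was tested on simulated counts for this contrast (16104 genes, 200 changed, all at or above the median level). It called all 40 genes at each log2 change of -3, -2 and 2, 39 of 40 at -1 and 39 of 40 at 1, and 12 of 15904 unchanged genes. The counts were drawn with the same dispersion for every gene and no deviation shared within a library. They therefore do not show the recovery in the real libraries. Alternatives were other scalings, pseudocounts and filters, smaller sets of libraries, a replicate block, a robust prior, edgeR 4.0.16 and DESeq2 1.42.0 on recovered reads, and each of the 6 libraries left out. Named are the 15 largest called rises and falls whose groups lay apart, at or above the median level, skipping unnamed and antisense genes, up to 8 members of each list with the smallest p, and MYC, IRF4, CREBBP, EP300, CRBN, IKZF1, IKZF3 and EGR1. JCHAIN, MZB1, HLA-DRA and HLA-DRB1 were added after their values were seen. The comparison, its members and the lists were chosen with earlier results of these data known. Replicates differed by more than counting error (chi-square per degree of freedom 5.30 to 25.4).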

Additional observations from a re-analysis of the deposited data

How the results depend on the processing

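Against 993 genes called, DESeq2 called 1754 and the other settings 691 to 1486. Genes lower stayed within 1.5 times of 904 in every setting, with 623 to 948 when 1 library was left out. Genes higher, 89, moved more: 337 with TMM factors, 330 with median-ratio factors, 499 with quantile normalization, 148 with only the 2 groups compared, 202 without the DMSO libraries, 387 in edgeR, 576 in DESeq2, and 33 to 74 when 1 library was left out. The median log2 difference over all genes moved from -0.03 to 0.01 with TMM, 0.04 with quantile normalization and -0.10 without combination replicate 1. Same-numbered libraries had correlations of 0.097, -0.40 and -0.52 between their deviations from the group means. With 3 libraries per group, these cannot decide whether replicate numbers pair the samples. With the replicate number as a block 885 genes were called, 70 higher and 815 lower. Of 170 named genes called lower, 134 kept their call under each alternative, as did 12 of 30 called higher, and no result reversed its direction while called. Scaling to the ERCC spike-ins was not run, as the values held no rows of them. The depth limits genes near 0: a count of 0 allows up to 3 reads in a library, for counting error only.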
